A study of Macaca fascicularis with 6 samples.

Results

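Synapsis and meiotic recombination genes were followed in oocytes of the cynomolgus monkey (Macaca fascicularis). The 8 genes were taken by name from a table of 28164 genes: SYCP2, SYCP3, HORMAD1 and HORMAD2, which act on the chromosome axis, and DMC1, MLH3, MSH4 and MSH5, which act in recombination. All 8 were present, 5 passed the filter on low counts and were tested, and HORMAD1, DMC1 and MSH4 did not pass it. The oocytes were wild type, untreated and stripped, and made up 3 groups with 2 libraries in each. The GV group holds immature oocytes, arrested in the first meiotic prophase while the nucleus (the germinal vesicle) is still whole. Those of the IVM MII group had matured in vitro to metaphase of the second division, and for IVO MII oocytes this had happened in vivo. The sources used here do not give the animals' ages, any hormone treatment, or how many oocytes and animals stand behind a library.

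Homologous chromosomes pair and exchange DNA in prophase of the first meiotic division, which oocytes enter before birth in primates. The axis proteins SYCP2 and SYCP3 form the side rails of the synaptonemal complex, the zipper that holds homologues together, and the HORMAD proteins mark axes that are not yet synapsed. DMC1, the meiotic recombinase, carries a broken strand into the homologue. MSH4 and MSH5 form a clamp on the joined strands, and MLH3 is part of the endonuclease that cuts them into crossovers. This work is over long before an oocyte reaches the GV stage, so transcripts of these genes are measured here after their known time of action.

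The libraries held 27707021 to 35515139 counts, with a count for 18264 to 20082 genes each. Levels are given as CPM, the counts scaled to library size with TMM factors, or as FPKM, the same per kilobase of the gene's exons, which is used wherever 2 genes are compared. Levels are shares of the poly(A)-primed RNA in a library, so fewer cells of a type and less RNA per cell cannot be told apart. A gene said to rise or fall did so in this share. Amounts per oocyte and poly(A) tail lengths were not measured. A floor of 3 counts per library stood at 0.0694 to 0.116 CPM. All 13 oocyte markers, such as GDF9, ZP3 and DAZL, were at 1 CPM or more in all 6 libraries. Their summed level was 32300 to 38902 CPM in GV, 16155 to 18464 in IVM MII and 9357 to 12137 in IVO MII. Single markers went both ways. Of the 13, 2 were called higher and 6 lower in IVM MII than in GV, and 3 higher and 8 lower in IVO MII. Among all genes tested, 25.6% were called higher and 24.7% lower in IVM MII than in GV, and 28.1% and 30.5% in IVO MII. The 14 cumulus and granulosa markers in the table summed to 34.7 to 40.3 CPM in GV, 86.2 to 88.2 in IVM MII and 36.8 to 53.5 in IVO MII. FOXL2, AMHR2, STAR, INHA and PTX3 had no count in any library. In the order GV, IVM MII and IVO MII, TNFAIP6 stood at 22.0, 27.9 and 13.6 CPM and HAS2 at 4.99, 18.7 and 22.1. GREM1 stood at 3.97, 29.0 and 4.01 CPM, and RUNX2 at 2.00, 7.58 and 1.91. Of the 6 tested, 3 were higher and 1 lower in IVM MII than in GV, and 1 higher and 1 lower in IVO MII. The 10 theca, stroma and endothelium markers summed to 326 to 384 CPM in GV, 150 to 159 in IVM MII and 83.1 to 86.7 in IVO MII. Most of the GV sum was VWF, at 312, 103 and 43.9 CPM in that order, while PECAM1 was called higher in both MII groups than in GV. The 7 blood and immune markers summed to 4.38 to 13.6 CPM over all libraries. These sums move with the groups, and their part in the results below was not tested.

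SYCP2 made up nearly all of the signal of the 8 genes. It took 99.1% to 99.7% of their counts in each library and 0.0780% to 0.207% of all counts. Per length of exon it stood at 181 ± 37.4 FPKM (SD, n = 2) in GV, 206 ± 28.3 in IVM MII and 328 ± 98.1 in IVO MII. That placed it at rank 467, 319 and 202 of 28164 genes. The next member was far below: SYCP3 at 3.64 FPKM in GV and 2.97 in IVM MII, and HORMAD2 at 0.882 FPKM in IVO MII. In GV the order went on with HORMAD2 at 1.06 FPKM, MSH5 at 0.138 ± 0.0133, MLH3 at 0.119 ± 0.0231, DMC1 at 0.0761 ± 0.0595 and MSH4 at 0.0130. MSH5, MLH3 and DMC1 lay within their spread of each other, and so did DMC1 and MSH4, which with 3 and 0 counts was at the floor. In IVO MII the levels of HORMAD2 (0.882 ± 0.366 FPKM), SYCP3 (0.413 ± 0.445) and MLH3 (0.400 ± 0.177) did not differ beyond their spread. MSH5 was at 0.124 ± 0.0481, within the spread of SYCP3. In IVM MII, MLH3 (0.220 FPKM) stood above MSH5 (0.179), DMC1 (0.0759) and MSH4 (0.0608), the last pair within their spread of each other.

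**Figure D1:**
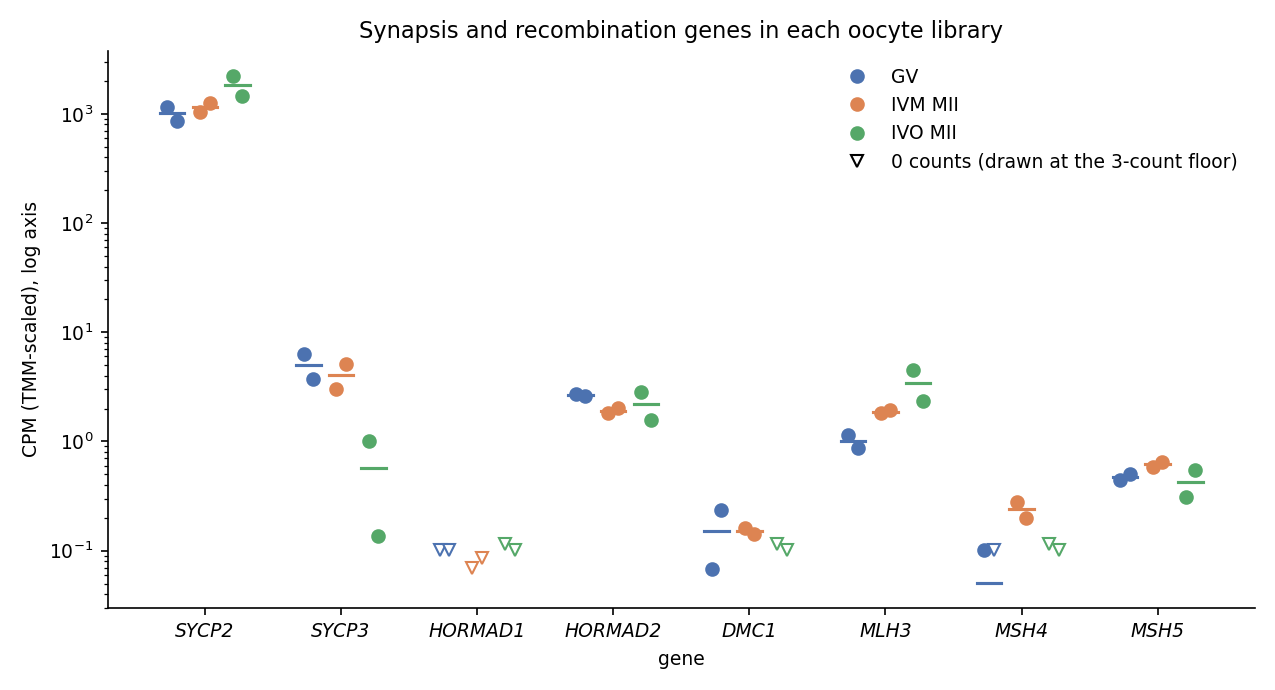
CPM on a log axis for each of the 8 genes, in each library (points) with group means (bars); open triangles are libraries with no count, drawn at the floor of 3 counts. SYCP2 lies between 865 and 2221 CPM, every other member at 6.33 CPM or less, and HORMAD1 has no count in any library.

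Between groups, SYCP2 and MLH3 were higher and SYCP3 was lower in IVO MII than in GV, while no member passed the test between IVM MII and GV. SYCP3 was also higher in IVM MII than in IVO MII. By edgeR's quasi-likelihood test with Benjamini-Hochberg adjustment over all 15815 genes tested, at an adjusted p under 0.05, 3 of 5 members were called between IVO MII and GV (2 higher and 1 lower). Of all genes tested in that comparison 58.5% were called, 28.1% higher and 30.5% lower. Between IVM MII and GV 0 of 5 members were called by edgeR, against 50.3% of all genes (25.6% higher and 24.7% lower). There 0 had an unadjusted p under 0.05, and DESeq2 and limma-voom called 0. Between IVM MII and IVO MII 1 of 5 was called, against 24.6% of all genes (14.3% higher and 10.3% lower). In IVM MII against GV, IVO MII against GV and IVM MII against IVO MII, the libraries of both groups did not overlap for 3, 3 and 4 of the 5 members, against 77.8%, 80.2% and 63% of all genes tested. The comparisons with GV share the GV libraries. The labels do not say whether the libraries of a group come from separate animals, so these p-values measure the spread between libraries, which may be technical.

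**Figure D2:**
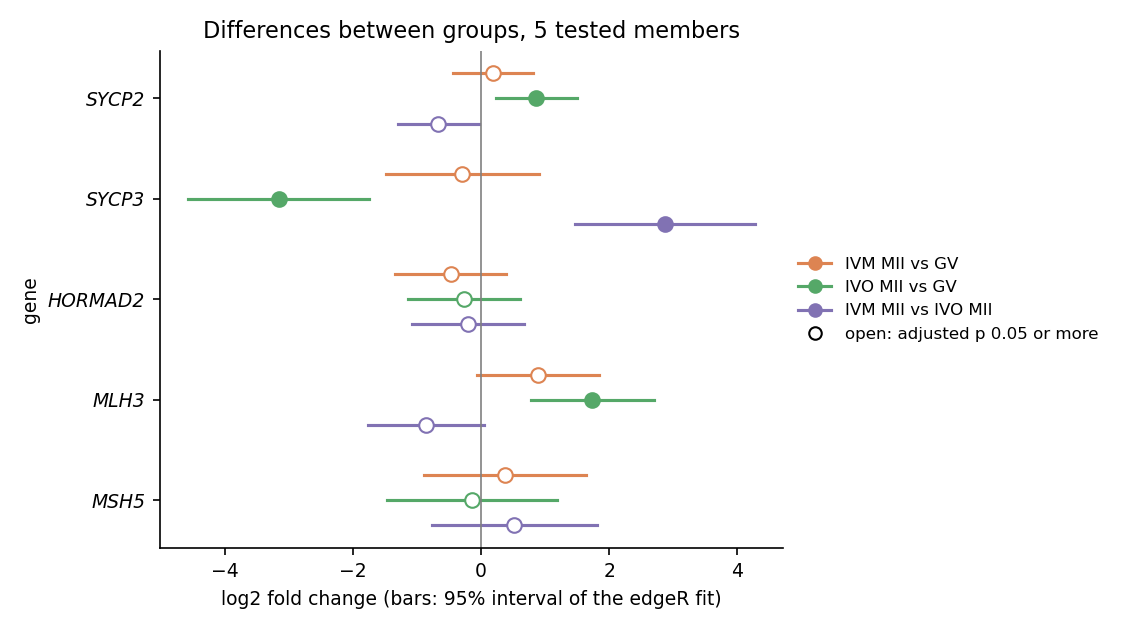
Log2 fold change of the 5 tested members in the 3 comparisons, with the 95% interval of the edgeR fit as bars; filled points passed an adjusted p of 0.05. SYCP3 has a filled point in both comparisons that include IVO MII, and SYCP2 and MLH3 in IVO MII against GV alone.

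SYCP2 encodes a large axis protein that binds SYCP3. The gene lies on macFas5 chromosome 10, from 91773646 to 91842912 on the minus strand, with 44 exon blocks of 5586 bases, of which 141 are shared with an exon of LOC107126579 on the other strand. Counting ignored strand, so reads in those shared bases cannot be given to either gene. Its level was 1160 and 865 CPM in GV. IVM MII had 1041 and 1265 CPM, and IVO MII 2221 and 1446. Both IVO MII libraries stood above all others, and GV and IVM MII overlapped. The log2 fold change of IVO MII against GV was 0.86 ± 0.29 (standard error of the fit), 1.81-fold higher, with an adjusted p of 0.0236. This call ended without GV replicate 2 (0.66, adjusted p = 0.178) and without IVO MII replicate 1 (0.51, adjusted p = 0.221). It also ended with the trend of fold change on gene length removed (0.63, adjusted p = 0.0771) and with a strict filter of 10 CPM in 2 libraries (0.52, adjusted p = 0.126). IVM MII against GV gave 0.19 with a 95% interval of -0.44 to 0.82, and an adjusted p of 0.610. IVM MII against IVO MII gave -0.67 (95% interval -1.30 to -0.04), with an adjusted p of 0.111 by edgeR; DESeq2 called it, at -0.74 with an adjusted p of 0.0345.

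SYCP2L, an oocyte paralogue of SYCP2, was much lower and did not pass the test in any comparison. It stood at 11.3 FPKM in GV, 13.5 in IVM MII and 12.8 in IVO MII. The FPKM ratio of SYCP2 to SYCP2L was 14.6 to 17.5 over the GV and IVM MII libraries, against 29.8 and 21.1 for IVO MII. Reads shared between these paralogues could be placed in either. The log2 fold change of SYCP2L was 0.26 in IVM MII and 0.19 in IVO MII against GV, with adjusted p of 0.349 and 0.488.

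SYCP3 encodes the partner of SYCP2 in the axis, a protein that assembles into fibres along it. The gene lies on chromosome 11, from 105475746 to 105486997 on the minus strand, with 10 exon blocks of 1381 bases. The GV libraries had 186 and 110 counts, those of IVM MII 131 and 182, and those of IVO MII 26 and 4. These are 6.33 and 3.72 CPM, 3.03 and 5.17 CPM, and 1.00 and 0.136 CPM. Both IVO MII libraries lay below the other 4, GV and IVM MII overlapped, and the 2 IVO MII libraries differed from each other several-fold. IVO MII against GV had a log2 fold change of -3.16 ± 0.65, 8.96-fold lower, with an adjusted p of 0.00137. IVM MII against IVO MII had 2.87 ± 0.64, 7.30-fold higher, with an adjusted p of 0.00781. The latter was 2.04 without IVO MII replicate 2 and 4.87 without IVO MII replicate 1, and its call ended without IVM MII replicate 2 (2.44, adjusted p = 0.0609). IVO MII against GV ranged from -5.17 without IVO MII replicate 1 to -2.32 without IVO MII replicate 2, and the call held without any 1 of the 6 libraries. IVM MII against GV gave -0.30 with a wide interval of -1.49 to 0.90 and an adjusted p of 0.675. The summed oocyte markers given above were also lowest in IVO MII, and their part in the SYCP3 result was not tested.

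SYCP2 and SYCP3 moved apart in IVO MII. The FPKM ratio of SYCP2 to SYCP3 was 45.3 and 57.5 in GV. It was 84.9 and 60.5 in IVM MII, against 547 and 2632 in IVO MII. The highest value rests on the 4 counts of SYCP3 in IVO MII replicate 2. Within a library such a ratio does not depend on the library's scaling factor.

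**Figure D3:**
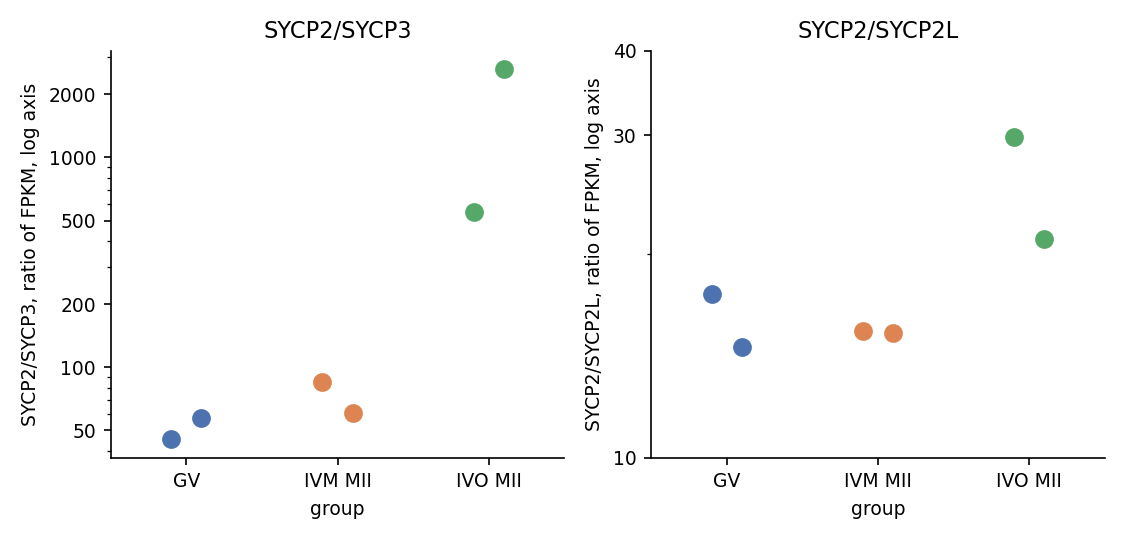
Ratio of FPKM in each library (points), on log axes, by group: SYCP2 over its partner SYCP3 (left) and SYCP2 over its paralogue SYCP2L (right). SYCP2 over SYCP3 is 45.3 to 84.9 in GV and IVM MII and 547 and 2632 in IVO MII; SYCP2 over SYCP2L is 14.6 to 17.5 in GV and IVM MII and 29.8 and 21.1 in IVO MII.

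The HORMAD proteins recruit the checkpoint machinery to unsynapsed axes. HORMAD1 was not detected, and HORMAD2 was low in every library. HORMAD1 (chromosome 1, 101323834 to 101345570, 15 exon blocks of 2067 bases) had 0 counts in each of the 6 libraries, which allows up to 0.0694 to 0.116 CPM. It was 1 of 5604 genes, 19.9% of the table, without a count in any library. HORMAD2 (chromosome 10, 21287961 to 21378451, 14 exon blocks of 2507 bases) had 46 to 80 counts in each library. GV had 2.72 and 2.60 CPM of HORMAD2, IVM MII 1.81 and 2.02, and IVO MII 2.86 and 1.56. IVO MII spanned the range of the other groups, and IVM MII lay below GV. No comparison of HORMAD2 passed: the log2 fold changes were -0.48 for IVM MII and -0.27 for IVO MII against GV, with 95% intervals of -1.35 to 0.39 and -1.15 to 0.60. Between IVM MII and IVO MII it was -0.21, with an interval of -1.08 to 0.67. These intervals leave room for changes up to their bounds.

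DMC1 and MSH4 had only a few counts in GV and IVM MII, and none in IVO MII. DMC1 (chromosome 10, 12661211 to 12715310, 2003 exonic bases) had 2 and 7 counts in GV and 7 and 5 in IVM MII; both IVO MII libraries had 0. The group levels were 0.152 CPM in GV and 0.152 in IVM MII, with exact 95% Poisson intervals of 0.0698 to 0.290 and 0.0791 to 0.267, which cover counting error only. Both intervals reach below the floor of 3 counts in the single IVO MII libraries, 0.102 and 0.116 CPM. They lie just above the IVO MII interval, 0 to 0.0667 CPM for its libraries together. The pooled counts of DMC1 in GV and IVM MII thus lay above those of IVO MII by little more than counting error. GV replicate 1 alone, at 0.0681 CPM, stood close to the upper bound of IVO MII. Spread between libraries is not covered by these intervals. MSH4 (chromosome 1, 151362045 to 151479232, 3919 exonic bases) had 3 and 0 counts in GV and 12 and 7 in IVM MII; it too had 0 in both IVO MII libraries. At 0.238 CPM (0.146 to 0.378) MSH4 in IVM MII lay above that floor, and GV, with an interval of 0.0105 to 0.149 CPM, was at the floor. Neither gene passed the low-count filter. With that filter left out, edgeR gave MSH4 an adjusted p of 0.0473 between IVM MII and IVO MII, and DMC1 one of 0.0910 there and 0.0555 between IVO MII and GV.

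MSH5, the partner of MSH4 in the clamp, was detected in all 6 libraries and passed no test. The gene lies on chromosome 4, from 139106084 to 139127409 on the minus strand, with 27 exon blocks of 3447 bases. GV had 13 and 15 counts, IVM MII 25 and 23, and IVO MII 8 and 16, or 0.442 and 0.507, 0.579 and 0.653, and 0.309 and 0.543 CPM. IVM MII lay above both other groups, while GV and IVO MII overlapped. The log2 fold changes were 0.37 for IVM MII and -0.14 for IVO MII against GV, with 95% intervals of -0.90 to 1.64 and -1.48 to 1.19. IVM MII against IVO MII gave 0.52, with an interval of -0.77 to 1.80 and an adjusted p of 0.556. In the 3 libraries with a count of both, MSH5 stood 2.37 to 4.93 times above MSH4 in FPKM.

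MLH3, the crossover endonuclease subunit, rose between GV and IVO MII. The gene lies on chromosome 7, from 139701102 to 139742468 on the minus strand, with 15 exon blocks of 8526 bases. GV had 34 and 26 counts, IVM MII 79 and 68, and IVO MII 116 and 69. These are 1.16 and 0.879 CPM, 1.83 and 1.93 CPM, and 4.48 and 2.34 CPM, so the groups did not overlap and stood in the order GV, IVM MII, IVO MII. IVO MII against GV had a log2 fold change of 1.74 ± 0.44, 3.34-fold higher, with an adjusted p of 0.00497. Leaving out IVO MII replicate 1 gave 1.20 (adjusted p = 0.0526), which ended the call. IVM MII against GV gave 0.88 (95% interval -0.07 to 1.83, adjusted p = 0.111), and passed only with scaling by library totals (1.17, adjusted p = 0.0442). IVM MII against IVO MII gave -0.86 (-1.76 to 0.05), with an adjusted p of 0.153.

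Other genes of the pathway were taken from lists of 75 symbols, of which 66 were in the table and 61 were tested. In IVM MII against GV 18 rose and 10 fell, in IVO MII against GV 19 rose and 13 fell, and in IVM MII against IVO MII 10 were higher and 8 lower. Over all genes tested the shares were 25.6% and 24.7%, 28.1% and 30.5%, and 14.3% and 10.3%. The median log2 fold changes were 0.23, 0.12 and 0.07, beside 0.06, -0.07 and 0.02 for all genes tested and 0.19, -0.14 and -0.21 for the 5 tested members. Scaling by library totals moved the median of all genes to 0.35, 0.01 and 0.24. It also moved the split of all genes called from 4053 higher and 3908 lower to 5276 and 3004 (IVM MII against GV), and from 2260 and 1635 to 2803 and 894 (IVM MII against IVO MII).

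**Figure D4:**
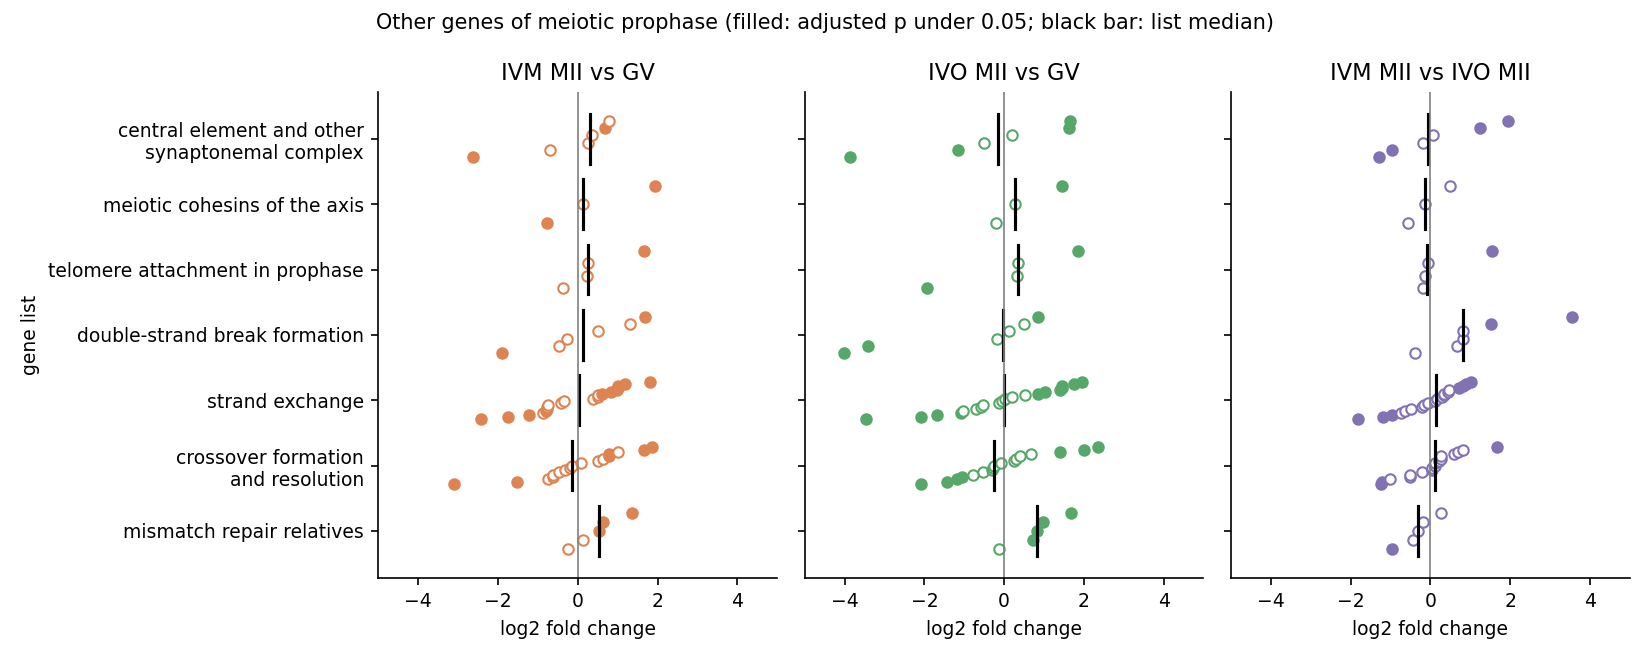
Log2 fold change of the 61 tested pathway genes in each comparison, by list; filled points passed an adjusted p of 0.05 and black bars are list medians. Every list but the mismatch repair relatives has filled points on both sides of 0 in at least 1 comparison, and that list has 4 higher and 0 lower in IVO MII against GV.

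Of the other synaptonemal complex genes 1 rose and 1 fell in IVM MII and 2 rose and 2 fell in IVO MII, of 6 tested. The central element is the middle bar of the zipper. SYCE1, one of its subunits, stood at 11.3 CPM in GV and fell to 1.83 with maturation in vitro (log2 fold change -2.62) and to 0.770 in vivo (-3.86). SYCE3, another subunit, went from 19.5 CPM in GV to 61.5 in IVO MII, a log2 fold change of 1.66, and stood at 31.4 in IVM MII. TEX12, also a subunit, was at 22.2 CPM in GV. It stood 3.87-fold higher in IVM MII than in IVO MII, at 38.5 against 9.91 CPM, with an adjusted p of 0.00173. TRIP13, the ATPase that strips HORMAD proteins from synapsed axes, had 24.3 CPM in IVM MII, against 59.0 in IVO MII. It was 3.10-fold higher in IVO MII than in GV, and 2.43-fold lower in IVM MII than in IVO MII. SYCP1, the transverse filament protein, had 0 to 7 counts a library and was not tested. Several of these calls were lost with 1 library fewer, in part at a similar fold change. The rise of SYCE3 in IVM MII (0.69) ended without GV replicate 1 (0.62) or 2 (0.76) or IVM MII replicate 2 (0.57) or with the 10 CPM filter (0.41), and the fall of TEX12 in IVO MII (-1.16) without IVO MII replicate 1 (-0.70) or with the length trend removed (-0.54). The differences of SYCE1 (1.23) and SYCE3 (-0.97) between IVM MII and IVO MII ended without IVM MII replicate 1 (1.38 and -0.84). That of SYCE1 also ended when replicate 2 of GV (1.24) or of IVM MII (1.10), or replicate 1 of IVO MII (1.04), was left out, with limma-voom (1.22), with the 4 compared libraries alone (1.27) and with the length trend removed (1.06).

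Among the meiotic cohesins and the genes that tether telomeres to the nuclear envelope, SMC1B and SUN1 rose by both routes. SMC1B, the meiotic ring subunit, stood at 3.68 CPM in GV, against 14.2 (IVM MII) and 10.1 (IVO MII). SUN1, the envelope protein that holds telomeres, went from 150 to 478 and 542 CPM. STAG3 had a log2 fold change of -0.78 in IVM MII against GV, a call that ended without GV replicate 2 (-0.58), IVM MII replicate 1 (-0.90) or replicate 2 (-0.66), and with library totals (-0.47). KASH5, listed as CCDC155, fell in IVO MII to 0.995 CPM from 3.80 in GV. Its difference between IVM MII and IVO MII (1.54) ended without replicate 1 of either group (1.21 and 1.22).

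In double-strand break formation, 1 of 6 tested genes rose and 1 fell in IVM MII, and 1 rose and 2 fell in IVO MII. REC114, which activates the SPO11 enzyme, stood at 21.4 CPM in GV and fell to 5.70 (IVM MII) and 2.00 (IVO MII). It was 2.85-fold higher in IVM MII than in IVO MII, with an adjusted p of 0.00407. ANKRD31, a partner of REC114, rose from 4.89 to 15.7 CPM in IVM MII, with a log2 fold change of 1.68. Its change in IVO MII (0.86) ended when replicate 2 of GV (0.50) or of IVM MII (0.86), or replicate 1 of IVO MII (0.65), was left out, with the 4 compared libraries alone (0.86), the length trend removed (0.61) or the 10 CPM filter (0.53). MEI1 had 14 and 42 counts in GV and 40 and 15 in IVM MII, against 3 and 0 in IVO MII. It was lower in IVO MII than in both other groups, with log2 fold changes of -4.02 from GV and 3.54 for IVM MII against IVO MII (adjusted p = 0.00560 and 0.0281), which depend on the prior count and are no bounds. The first call ended without GV replicate 2 (-3.03, adjusted p = 0.0659), and the other without IVM MII replicate 1 (2.89, adjusted p = 0.136) or IVO MII replicate 2 (2.52, adjusted p = 0.0761), at fold changes that stayed large.

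Strand exchange genes, the setting of DMC1, went in both directions, with 7 of 20 higher and 5 lower in IVM MII than in GV, and 7 and 4 in IVO MII. Over all genes tested the shares called were 25.6% and 24.7%, and 28.1% and 30.5%. SFR1, an accessory factor of strand exchange, fell from 698 CPM in GV to 130 (IVM MII) and 63.8 (IVO MII). The HOP2 and MND1 proteins form a complex that helps DMC1. MND1 rose from 15.0 to 34.1 and 39.4 CPM, while PSMC3IP, which encodes HOP2, was at 3.46, 2.07 and 1.63 CPM. The call of PSMC3IP in IVO MII (-1.09) ended without GV replicate 1 (-1.27) or 2 (-0.88) or IVO MII replicate 2 (-0.87), with library totals (-1.02) and with the length trend removed (-0.88). PALB2, which links BRCA1 to BRCA2, rose from 12.9 to 44.9 and 50.3 CPM, and HSF2BP, which brings BRCA2 to meiotic breaks, reached 136 CPM in IVO MII from 49.5 in GV. XRCC2, which acts in homologous recombination, was 3.52-fold lower in IVM MII than in IVO MII, at 21.0 against 73.8 CPM. SPATA22, SFR1 and RAD51C also differed between IVM MII and IVO MII, at -1.19, 1.02 and 0.88. The call of SPATA22 ended without IVM MII replicate 1 (-0.96), that of SFR1 when IVM MII lost replicate 2 (0.91) or IVO MII lost replicate 1 (0.76), and that of RAD51C without IVM MII replicate 2 (0.65).

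In crossover formation and resolution, the setting of MLH3, MSH4 and MSH5, 4 of 17 tested genes rose and 2 fell in IVM MII, and 3 rose and 4 fell in IVO MII. EXO1, a nuclease that works with MLH3, stood at 85.9 ± 5.28 CPM in GV, 29.7 ± 1.81 in IVM MII and 69.8 ± 36.8 in IVO MII. It fell in IVM MII (-1.53), and its difference from IVO MII (-1.23) ended when either IVM MII library (-1.15 and -1.30) or IVO MII replicate 1 (-0.56) was left out. Against GV the value in IVO MII was -0.30, and -0.97 with a call without IVO MII replicate 1. HFM1, a helicase that acts with MSH4 and MSH5, was at 0.421 to 0.645 CPM in the group means and passed no test. BLM, a helicase that dissolves joined strands, rose from 17.8 to 56.7 CPM in IVM MII, and its partner RMI1 rose 3.63-fold in IVM MII and 5.16-fold in IVO MII. FANCM, a helicase, was 3.99-fold higher in IVO MII than in GV, at 79.8 CPM, and 1.72-fold higher in IVM MII, at 34.5 CPM. Its difference between IVM MII and IVO MII (-1.21) ended without IVM MII replicate 1 (-1.21) or 2 (-1.18). CDK2 was at 8.17, 0.939 and 1.90 CPM and fell in IVM MII (-3.11); its fall in IVO MII (-2.09) ended without GV replicate 2 (-1.56). CCNB1IP1, known as HEI10 and placed at crossover sites, was 3.21-fold higher in IVM MII than in IVO MII. Its fall from GV to IVO MII (-1.05) ended without GV replicate 2 (-0.85) or IVO MII replicate 1 (-0.82).

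The mismatch repair relatives of the MSH and MLH members act in all cells, and MSH6 was well above MSH5. In the order GV, IVM MII, IVO MII, MSH6 stood at 5.71, 14.7 and 18.1 FPKM, against 0.138, 0.179 and 0.124 for MSH5. Of the 5 relatives, 3 rose and 0 fell in IVM MII and 4 rose and 0 fell in IVO MII, beside 25.6% and 28.1% of all genes called higher. MSH6 rose 2.57-fold and 3.17-fold. The rise of PMS1 in IVM MII (0.63) ended without GV replicate 2 (0.46) or IVM MII replicate 2 (0.48), and also with RLE factors (0.58), the 4 compared libraries alone (0.54) or the 10 CPM filter (0.35). MSH3 was lower in IVM MII than in IVO MII (-0.96), a call that ended without IVM MII replicate 1 (-0.93) or 2 (-0.97).

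For each tested member the 2 genes of most similar pattern were found among 9834 tested genes with a symbol, by the root mean square difference of centred log2 CPM over the 6 libraries. Nearest to SYCP2 were HMMR, a spindle protein, at 0.0636, and OAT, ornithine aminotransferase, at 0.0648. HMMR had group means of 59.5 (GV), 74.1 (IVM MII) and 111 CPM (IVO MII). MLH3 was nearest to POLA1, the catalytic subunit of DNA polymerase alpha (0.0662), and to POP1, a subunit of RNase P (0.0851). POLA1 had 20.6, 37.3 and 59.9 CPM in the same order. SYCP3 had no close match, its nearest being C1QTNF7 (0.452) and MYBPC1, a muscle myosin-binding protein (0.459). HORMAD2 was nearest to FARP2 (0.0648) and PPEF1 (0.0942), and MSH5 to EIF2AK2, the kinase PKR (0.0774), and TMBIM6 (0.0861). Nearness over 6 libraries from 3 groups describes these libraries alone.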

How the data were processed

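RNA was sequenced from 6 libraries of monkey oocytes. The authors deposited raw read counts per gene: per the file headers, featureCounts 2.0.1 counted paired fragments over exons by gene, with no strand option, on the macFas5 RefSeq annotation. The submitters' processing notes also name fastp, FastQC, Bowtie2 and SAMtools. Bowtie2 makes no spliced alignments, which can lose fragments that cross an exon junction.

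Counts were filtered by edgeR's filterByExpr (15815 of 28164 genes kept), scaled by TMM factors (0.902 to 1.22), and tested with edgeR 4.0.16 (R 4.3.3) by the robust quasi-likelihood test on all 6 libraries, two-sided, adjusted by Benjamini and Hochberg at 0.05. Alternatives used DESeq2 1.42.0 and limma 3.58.1 among others. FPKM divides scaled CPM by the exonic length in the file. Figures used matplotlib 3.10.9. Pattern distances used log2(CPM + 0.1) and genes with a mean of at least 1 CPM.

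All 8 members are reported, together with fixed partners and, per list and comparison, up to 2 genes a direction by adjusted p. SYCP2L, VWF, PECAM1, TNFAIP6, GREM1, HAS2 and RUNX2 were added after seeing the values. The members and lists were chosen with earlier results of these data known. Of 75 pathway symbols, 9 are not analysed here. Some genes that the naming rule picks are not reported here. Replicates of the same number are not said to be linked; the correlations of their deviations between groups were -0.144, 0.178 and -0.114.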

Additional observations from a re-analysis of the deposited data

How the results depend on the processing

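Of the tested members' values under other settings, 194 kept their direction and side of the threshold, 11 changed sign, 6 lost a call and 2 gained one; all 11 that changed sign were uncalled in the fit reported above. SYCP2 in IVM MII against GV became -0.0903 with the filter of 10 CPM in 2 libraries and -0.0189 with the length trend removed. With that trend removed SYCP3 in IVM MII against GV was 0.13 and HORMAD2 in IVO MII against GV 0.0316; HORMAD2 in IVM MII against IVO MII was 0.0201 with library totals, where MND1 was 0.000686. Leaving out single libraries gave ranges that crossed 0: in IVM MII against GV -0.00904 to 0.42 for SYCP2 and -0.73 to 0.14 for SYCP3; in IVO MII against GV -0.77 to 0.10 for HORMAD2 and -0.61 to 0.19 for MSH5; in IVM MII against IVO MII -0.57 to 0.29 for HORMAD2. For other genes the range was -0.97 to 0.16 for EXO1 and -0.78 to 0.40 for HFM1 in IVO MII against GV, and -0.0272 to 0.66 for PSMC3IP, -0.43 to 0.0121 for MND1 and -0.997 to 0.17 for HFM1 in IVM MII against IVO MII. The filter of 10 CPM, which keeps only SYCP2 of the members, gave 2268 higher and 2352 lower genes in IVM MII against GV, 2727 and 2859 in IVO MII against GV, and 1051 lower in IVM MII against IVO MII; it called 0 members higher and 0 lower in IVO MII against GV and 0 higher in IVM MII against IVO MII. With library totals 1 member was called higher in IVM MII against GV, beside 5276 of 15815 genes tested. With the length trend removed 1 was called higher in IVO MII against GV, beside 4860 of 15815 genes. Without a low-count filter 2 were called higher in IVM MII against IVO MII, beside 2519 of 22560 genes. In that comparison DESeq2 called 1 member lower, beside 2136 of 15815 genes. Library totals gave 894 lower genes in IVM MII against IVO MII; removing the length trend gave 1979 and 2076 there, where DESeq2 gave 2100 and 2136, and 4860 and 4240 in IVO MII against GV. Leaving out single libraries, which leaves a lone library assumed to vary like the others, gave 2563 (without GV replicate 2) to 4383 higher genes in IVM MII against GV, and in IVM MII against IVO MII 1343 to 2078 higher and 780 (without IVM MII replicate 2) to 1489 lower. The log2 fold changes in IVO MII against GV then ranged from 0.51 to 1.13 for SYCP2 and from 1.20 to 2.13 for MLH3. For SYCP3 in IVM MII against IVO MII the range was 2.04 to 4.87. With a replicate block the genes called were 3982 higher and 3748 lower in IVM MII against GV, 4345 and 4670 in IVO MII against GV, and 2180 and 1545 in IVM MII against IVO MII, and no call of a member changed. Low counts limit HORMAD1, DMC1 and MSH4, which were not tested.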
